A study of Homo sapiens with 12 samples.

Results

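The cancer-testis antigen genes described here are 9 of the 21569 genes in a table of polyadenylated RNA counts from TC71, a human Ewing sarcoma cell line. They are MAGEA1, MAGEA3, MAGEA4, MAGEA6, MAGEA12, CSAG1, CTAG2, FATE1 and PIWIL2, taken by gene symbol and chosen by their RNA levels in these same libraries, chiefly in clone 1 and clone 2 against wild-type, so what follows describes them and does not test them. All 9 were in the table and all 9 had enough reads to enter the fit over 17084 genes. MAGEA4, MAGEA12, CSAG1, CTAG2 and FATE1 entered it only through their clone 1 reads, and PIWIL2 only through its wild-type reads. The libraries formed 4 groups of 3, namely ID2 knockout clone 1, ID2 knockout clone 2, a rescue line derived from clone 2, and wild-type TC71. Every group was grown in DMEM with fetal bovine serum, each knockout group was 1 clone, and the labels give neither the kind of edit nor the rescue construct. The labels do not mention separate cultures behind the 3 libraries of a group, so SDs and p-values measure the spread between libraries, which may be technical.

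Cancer-testis antigen genes are active in male germ cells and largely silent in adult somatic tissue, where many of them carry DNA methylation at their promoters, and they are found active again in many tumours. Their peptides can be shown to T cells on MHC class I molecules, which made several of them vaccine and T-cell targets. Most sit in families of young duplicated genes on the X chromosome. The type I MAGE proteins share a MAGE homology domain that binds RING-type ubiquitin ligases. In Ewing sarcoma, FATE1 has been described as a germ-cell protein that tumour cells use, while PIWIL2 belongs to the germline piRNA machinery.

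By position, 8 of the 9 genes lie on the X chromosome within 2937545 bases (GENCODE release 29, hg38), and PIWIL2 is autosomal. FATE1 (chrX:151716035-151723194, plus strand) comes first, followed by MAGEA4 (chrX:151912509-151925170, plus strand). A compact cluster of 70996 bases then holds MAGEA3 (chrX:152698752-152702347, plus strand), CSAG1 (chrX:152727484-152733735, minus strand), MAGEA12 (chrX:152733779-152737669, plus strand) and MAGEA6 (chrX:152766136-152769747, minus strand). CSAG1 and MAGEA12 point away from each other with 43 bases between their starts. MAGEA1 (chrX:153179285-153183880, plus strand) and CTAG2 (chrX:154651972-154653579, minus strand) lie beyond the cluster.

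RefSeq promoter windows (GRCh38.p14, 250 bases before to 50 after a gene start) were at hand for 6 of the 9 genes, and not for MAGEA1, CTAG2 and PIWIL2. The 300-base windows of MAGEA3 and MAGEA6, which stand in opposite orientation at the ends of the cluster, differed at 0 positions. The stretches below are shown because all 9 windows of these 4 MAGEA genes hold 1 run of 11 bases, the longest they all share, although their levels differed widely between the clones. They cover chrX:152698693-152698735 (MAGEA3, plus strand), chrX:152769748-152769790 (MAGEA6, minus strand), chrX:152733730-152733772 (MAGEA12, plus strand) and chrX:151912439-151912481 (MAGEA4, plus strand). Capitals mark the shared run CTGACTTGCGC and, where present, the ETS core CCGGAT, a sequence of the kind bound by ETS factors. The full windows of MAGEA3 and MAGEA6 each held 1 match to CCGGAA or CCGGAT too, outside the stretches shown. The marking therefore does not separate these genes by ETS core. 
MAGEA3: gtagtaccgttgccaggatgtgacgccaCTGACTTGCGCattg
MAGEA6: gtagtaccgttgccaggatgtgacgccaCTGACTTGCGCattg
MAGEA12: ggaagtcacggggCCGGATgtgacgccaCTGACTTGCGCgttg
MAGEA4: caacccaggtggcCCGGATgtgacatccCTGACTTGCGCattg

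The MAGEA3 and MAGEA12 stretches differed at 11 of 43 positions, and the MAGEA3 and MAGEA4 stretches at 12. Searched on either strand, CTGACTTGCGC was present in 17 of 35116 RefSeq windows (0.0484%), those of 11 genes: ABCA3, CSAG1, CSAG3, MAGEA12, MAGEA2, MAGEA2B, MAGEA3, MAGEA3-DT, MAGEA4, MAGEA6 and MAGEA6-DT. The run was defined from the members' own windows, so its rarity is a description. An ETS core, CCGGAA or CCGGAT on either strand, was present in 7772 windows (22.1%), and it did not overlap the shared run in the stretches shown. CSAG1 and MAGEA12 have 1 copy of the run between their opposed starts, so it falls in the windows of both.

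CpG dinucleotides, the positions at which promoter methylation is measured, also set the members apart from each other. The windows of MAGEA3 and MAGEA6 each held 19 CpGs, that of CSAG1 held 16, those of MAGEA12 held 9 and 15, and the 5 windows of MAGEA4 held between 10 and 15. The median over all 35116 windows was 14. FATE1 held 2, and 10.97% of all windows held fewer. The bases upstream of the starts of MAGEA3 (chrX:152698544-152698751, plus strand) and FATE1 (chrX:151715785-151716034, plus strand) are shown for that contrast, with each CpG in capitals, 8 in MAGEA3 and 2 in FATE1. Methylation itself was not measured here.
MAGEA3 upstream: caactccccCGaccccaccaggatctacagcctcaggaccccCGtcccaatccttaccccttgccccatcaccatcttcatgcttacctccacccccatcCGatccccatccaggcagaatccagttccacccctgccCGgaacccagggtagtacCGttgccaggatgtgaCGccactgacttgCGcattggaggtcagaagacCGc
FATE1 upstream: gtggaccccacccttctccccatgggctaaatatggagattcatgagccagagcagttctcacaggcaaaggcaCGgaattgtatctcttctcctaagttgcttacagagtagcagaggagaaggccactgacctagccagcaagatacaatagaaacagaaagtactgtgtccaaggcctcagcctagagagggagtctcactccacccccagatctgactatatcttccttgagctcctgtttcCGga

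Library totals ran from 19420408 to 29748084 counts, and CPM below means counts scaled by TMM to a common library total. ID2, the targeted gene, averaged 18.1 ± 0.777 CPM in clone 1, 50.9 ± 3.16 in clone 2, 41.5 ± 0.537 in the libraries labelled rescue and 77.9 ± 0.657 in wild-type cells (SD, n = 3 each). ID2 RNA was thus lower in both clones than in wild-type cells and was not higher in the libraries labelled rescue than in clone 2, which bears on every direction drawn from that label. The Ewing sarcoma markers CD99, NKX2-2, NR0B1, STEAP1, LIPI, PRKCB, BCL11B and CCK had reads in all 4 groups. Levels of some differed, with BCL11B at 15.7 CPM in clone 1 and 42.3 in wild-type cells. The presence of reads does not by itself establish the tumour type, which is taken from the labels. In RNA from whole cultures, fewer cells that express a gene and less RNA per expressing cell cannot be told apart.

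The genes of the MAGEA3 to MAGEA6 cluster were high in clone 1, low in wild-type cells and close to absent in clone 2 and in the libraries labelled rescue. MAGEA3, which with MAGEA6 activates the ubiquitin ligase TRIM28, had 1692, 2383 and 2067 reads in clone 1, then 5, 5 and 4 in clone 2, 3, 5 and 5 in the libraries labelled rescue, and 45, 27 and 54 in wild-type cells. Every clone 1 library was above every wild-type library, and every wild-type library was above all 6 libraries of clone 2 and rescue. The means were 84.8 ± 0.256 CPM in clone 1, 0.204 ± 0.0426 in clone 2, 0.165 ± 0.0475 in the libraries labelled rescue and 1.68 ± 0.344 in wild-type cells (SD, n = 3 each). Against wild-type, the log2 fold change of MAGEA3 was 5.63 (SE 0.08) in clone 1 and -3.06 (SE 0.29) in clone 2.

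MAGEA6, the near-identical partner of MAGEA3, had 895, 1251 and 1147 reads in clone 1, then 1, 0 and 3 in clone 2, 5, 4 and 3 in the libraries labelled rescue, and 22, 18 and 26 in wild-type cells. As for MAGEA3, every clone 1 library was above every wild-type library, and every wild-type library was above all 6 libraries of clone 2 and rescue. The log2 fold change against wild-type was 5.66 (SE 0.11) in clone 1 and -3.85 (SE 0.47) in clone 2. Parts of the transcripts of these copies cannot be assigned to 1 gene. Of the 50-base windows of MAGEA3 transcripts, 56.5% also occur in transcripts of other genes, mainly MAGEA6, and 53.9% of those of MAGEA6 do. At 100 bases the shares were 34.9% for MAGEA3 and 33.0% for MAGEA6.

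Within the pair, MAGEA3 took 65.1% of 9435 reads in clone 1 (exact 95% interval 64.1 to 66.1), 77.8% of 18 reads in clone 2 (52.4 to 93.6), 52% of 25 reads in the libraries labelled rescue (31.3 to 72.2) and 65.6% of 192 reads in wild-type cells (58.4 to 72.3). These intervals cover counting error only. The clone 1 share was within the wild-type interval, and at the depth of clone 2 and the libraries labelled rescue a difference in share was not detectable.

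MAGEA12, another type I MAGE protein, had 947, 1356 and 1107 reads in clone 1, then 0, 1 and 1 in clone 2, 0, 2 and 0 in the libraries labelled rescue, and 16, 6 and 16 in wild-type cells. Clone 1 averaged 47.0 ± 1.35 CPM and wild-type cells 0.502 ± 0.198 (SD, n = 3 each), a log2 fold change of 6.50 (SE 0.13). The 2 reads of clone 2 gave a ratio to wild-type of 0.0556, with an exact 95% counting interval of 0.0065 to 0.215. Of the 50-base windows of MAGEA12 transcripts, 13.8% also occur in transcripts of other genes, among them MAGEA2B.

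CSAG1, first described as a chondrosarcoma-associated gene, had 317, 455 and 380 reads in clone 1, then 0, 0 and 1 in clone 2, 0, 0 and 1 in the libraries labelled rescue, and 4, 4 and 10 in wild-type cells. Clone 1 exceeded wild-type by a log2 fold change of 6.001 (SE 0.18). Clone 2 stood at 0.0587 of wild-type (counting interval 0.00141 to 0.372). The ratio of CSAG1 to MAGEA12 reads was 0.335, 0.336 and 0.343 in the 3 clone 1 libraries, which may be technical replicates, and 0.25, 0.667 and 0.625 in the wild-type libraries, where CSAG1 had 4 to 10 reads. CSAG4, a pseudogene that overlaps MAGEA12 on the same strand, had 43 reads in clone 1 and none in any other group, and reads of the overlap could have been counted to either gene.

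Outside the cluster, the X-linked members differed from these 4 and from one another. MAGEA1, the founding member of the MAGE family, had 99, 186 and 122 reads in clone 1, then 15, 6 and 14 in clone 2, 22, 18 and 24 in the libraries labelled rescue, and 34, 44 and 79 in wild-type cells. The groups did not overlap, although clone 1 was far closer to wild-type than for the cluster genes, with 5.53 ± 0.941 CPM in clone 1, 0.492 ± 0.174 in clone 2, 0.807 ± 0.110 in the libraries labelled rescue and 2.08 ± 0.649 in wild-type cells (SD, n = 3 each). The log2 fold change was 1.40 (SE 0.17) in clone 1 and -2.07 (SE 0.28) in clone 2.

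FATE1, a protein of the outer mitochondrial membrane, had 170, 206 and 179 reads in clone 1, then 9, 7 and 6 in clone 2, 1, 0 and 0 in the libraries labelled rescue, and 5, 4 and 10 in wild-type cells. Clone 2 and wild-type overlapped, at 0.315 ± 0.0382 CPM in clone 2 and 0.248 ± 0.0844 in wild-type cells (SD, n = 3 each), and that log2 fold change of 0.29 (SE 0.44) did not pass the test. Clone 1, at 7.73 ± 0.665 CPM, exceeded wild-type by 4.88 (SE 0.22) on the log2 scale.

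MAGEA4, which binds the ubiquitin ligase RAD18 and is a target of engineered T cells, was the member with reads in both clones and nearly none in wild-type cells. It had 21, 43 and 50 reads in clone 1, 9, 8 and 4 in clone 2, 0, 1 and 3 in the libraries labelled rescue, and 0, 1 and 0 in wild-type cells. Both clones were above every wild-type library. Against the single wild-type read, the ratio was 116 in clone 1 (counting interval 20.5 to 4637) and 22.2 in clone 2 (3.57 to 917).

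CTAG2, known as LAGE-1 and a close relative of NY-ESO-1, had 36, 42 and 52 reads in clone 1, none in clone 2 or in the libraries labelled rescue, and 0, 0 and 1 in wild-type cells. Clone 1 averaged 1.81 ± 0.324 CPM (SD, n = 3). A count of 0 allows up to 0.0429 CPM in clone 2 and 0.0379 CPM in the libraries labelled rescue, taking a floor of 3 counts over a group. The ratio of clone 1 to wild-type was 133 (counting interval 23.4 to 5283), and clone 2 was at least 41.9-fold lower than clone 1. Of its 50-base windows, 43.1% also occur in CTAG1A or CTAG1B, so its reads are not certain to be its own.

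PIWIL2, a PIWI protein that binds piRNAs in germ cells, ran the other way. It had 5, 12 and 11 reads in clone 1, 5, 3 and 3 in clone 2, 2, 6 and 5 in the libraries labelled rescue, and 81, 70 and 117 in wild-type cells. All 9 libraries of the edited lines were below all 3 wild-type libraries. The means were 0.376 ± 0.110 CPM in clone 1, 0.155 ± 0.0180 in clone 2, 0.166 ± 0.0825 in the libraries labelled rescue and 3.58 ± 0.392 in wild-type cells (SD, n = 3 each). The log2 fold change against wild-type was -3.21 (SE 0.24) in clone 1, -4.48 (SE 0.30) in clone 2 and -4.42 (SE 0.28) in the libraries labelled rescue. PIWIL2-DT, the divergent RNA that starts next to PIWIL2 and was chosen for mention after its values were seen, had 41 reads in clone 1, 44 in clone 2, 46 in the libraries labelled rescue and 33 in wild-type cells, and passed the test in neither clone.

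**Figure D1:**
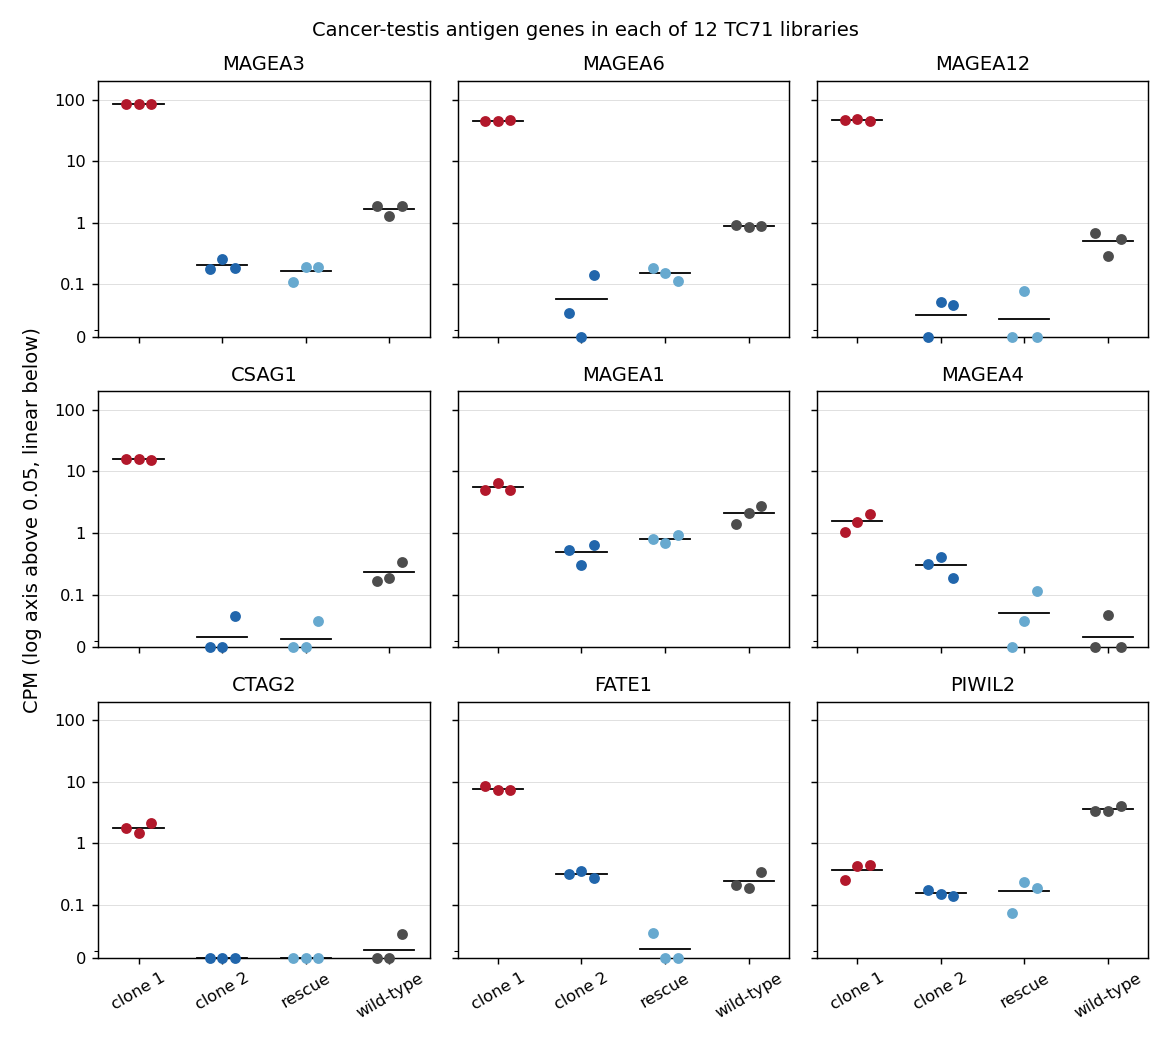
CPM (log axis above 0.05, linear below) of the 9 genes in each library of clone 1, clone 2, the libraries labelled rescue and wild-type cells; points are libraries and bars are group means (n = 3). The 8 X-linked genes are highest in clone 1, with MAGEA3 at 84.8 CPM, while PIWIL2 is highest in wild-type cells at 3.58 CPM.

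Read together, the 8 X-linked genes held 208.8 to 210.6 CPM in the clone 1 libraries, 1.36 to 1.53 in clone 2, 1.14 to 1.38 in the libraries labelled rescue and 4.93 to 6.76 in wild-type cells. The 4 cluster genes made up 91.9% to 92.2% of that sum in clone 1, 15.4% to 27.3% in clone 2, 25% to 36.7% in the libraries labelled rescue and 52.9% to 69.0% in wild-type cells. In clone 1 the sum was therefore almost entirely the MAGEA3 cluster, while in clone 2 MAGEA1, MAGEA4 and FATE1 made up most of it.

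Per kilobase of exon, which allows levels of different genes to be set side by side, the order in clone 1 was MAGEA3 (47.4 CPM per kb), MAGEA6 (24.4), MAGEA12 (24.2), CSAG1 (14.5), FATE1 (7.21), MAGEA1 (3.23), CTAG2 (1.82), MAGEA4 (0.502) and PIWIL2 (0.0655). MAGEA6 and MAGEA12 did not differ in that order beyond the spread between libraries. In wild-type cells the order began with MAGEA1 at 1.22 CPM per kb, MAGEA3 at 0.937, PIWIL2 at 0.623 and MAGEA6 at 0.478, and MAGEA1 and MAGEA3 were within their spread of each other. No member exceeded 1.22 CPM per kb in wild-type TC71.

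Counted over the whole fit by edgeR's quasi-likelihood test at an adjusted p under 0.05, 8 members were called higher in clone 1 than in wild-type cells and PIWIL2 was called lower, where 61.5% of all genes tested were called, 30.8% higher and 30.7% lower. In clone 2 against wild-type, 1 member, MAGEA4, was called higher and 6 lower, where 62.1% of all genes were called, 31.5% higher and 30.6% lower. CTAG2 and FATE1 were not called. MAGEA4, MAGEA12 and CSAG1 had too few reads to pass the filter when clone 2 and wild-type alone entered the fit, which left 4 members tested, all 4 called lower (MAGEA1, MAGEA3, MAGEA6 and PIWIL2). In clone 2 against clone 1 all 9 were called lower, where 62.2% of all genes were called, 30.3% higher and 31.9% lower. With the 2 clones alone in the fit, 8 members were tested, and PIWIL2 had too few reads. The call of PIWIL2 there was lost on leaving out clone 1 replicate 2, clone 1 replicate 3 or clone 2 replicate 3 (edgeR adjusted p = 0.0557 to 0.0717). The direction of members that entered the fit through clone 1 alone, or through wild-type alone, was set by the filter in contrasts with that group. Because of this, and because the members were chosen with these contrasts known, nothing is read from the counts. These comparisons share the wild-type or the clone libraries and are not independent of each other.

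The median fitted log2 fold change of the 9 members was 5.66 in clone 1 and -3.06 in clone 2, against 0.01 over all genes in both comparisons. The libraries of both groups did not overlap for 9 members in clone 1 against wild-type, as for 65.2% of all genes tested, for 7 members in clone 2 against wild-type (64.4% of all genes), and for 9 members in clone 2 against clone 1 (65.6% of all genes). MAGEA3 had a log2 fold change of -8.69 in clone 2 against clone 1, and PIWIL2 had -1.27 (SE 0.48).

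**Figure D2:**
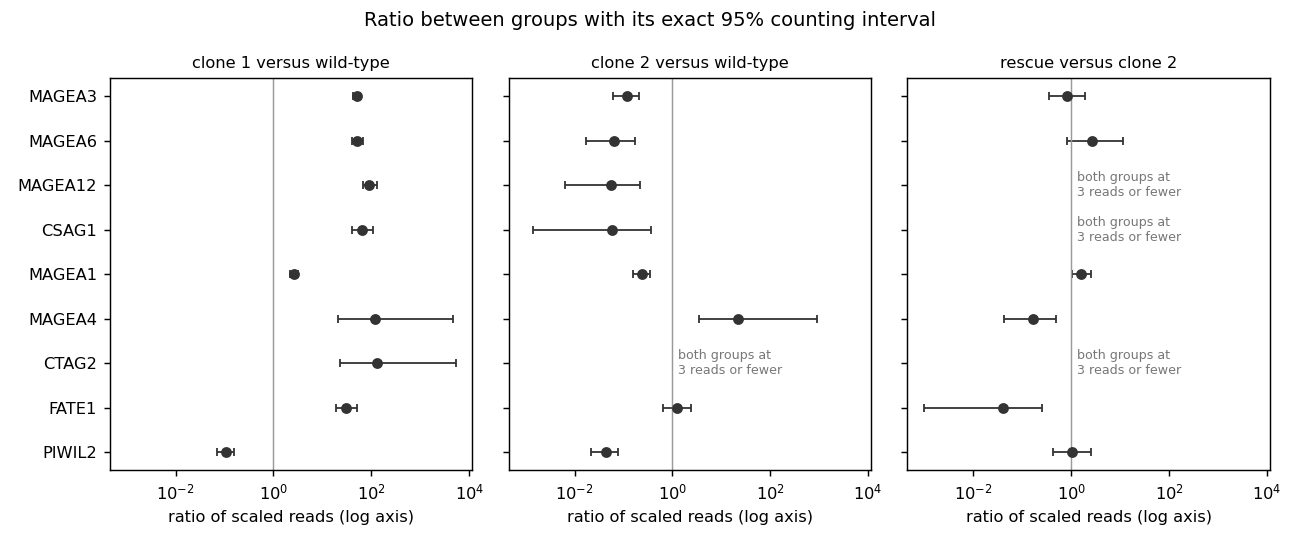
Ratio of scaled reads (log axis) with its exact 95% counting interval for each gene in clone 1 against wild-type, clone 2 against wild-type and the libraries labelled rescue against clone 2. MAGEA3, MAGEA6, MAGEA12, CSAG1 and MAGEA1 lie above 1 in clone 1 and below 1 in clone 2, MAGEA4 lies above 1 in both, and PIWIL2 lies below 1 in both.

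The comparison of the rescue line with its parent clone asks whether levels changed once ID2 was restored, but ID2 RNA was not higher in the libraries labelled rescue. In the libraries labelled rescue against clone 2, no member was called higher and 2, MAGEA4 and FATE1, were called lower, where 39.2% of all genes were called, 19.3% higher and 19.9% lower. With these 2 groups alone in the fit, neither MAGEA4 nor FATE1 had enough reads to be tested, and MAGEA1, the 1 member left, was not called. MAGEA4 had a log2 fold change of -2.46 (SE 0.72). FATE1 stood at 0.0402 of its clone 2 level (counting interval 0.000973 to 0.249), with 1 read in the libraries labelled rescue against 22 in clone 2. The libraries labelled rescue overlapped wild-type for MAGEA4 and lay below both clone 2 and wild-type for FATE1.

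Beside MAGEA4 and FATE1, MAGEA1 was the third member whose libraries did not overlap in that comparison, as 47.6% of all genes did not; it was higher in all 3 libraries labelled rescue than in all 3 of clone 2, and its log2 fold change of 0.69 (SE 0.34) did not pass the test. The other members gave no call, with MAGEA3 at 13 reads in the libraries labelled rescue against 14 in clone 2, MAGEA6 at 12 against 4, MAGEA12 at 2 against 2, CSAG1 at 1 against 1, CTAG2 at 0 against 0 and PIWIL2 at 13 against 11. With so few reads the limits are wide: the counting interval of the ratio was 0.355 to 1.88 for MAGEA3. Against wild-type, 7 members were called lower in the libraries labelled rescue and none higher, where 58.4% of all genes were called, 28.5% higher and 29.9% lower, and MAGEA4 and CTAG2 were not called. The libraries did not overlap for 7 members there, as for 61.9% of all genes. MAGEA12, CSAG1 and FATE1 had too few reads to be tested with the libraries labelled rescue and wild-type alone in the fit, and the 4 members left were all called lower. MAGEA3 was -3.34 there on the log2 scale.

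Genes next to the X-linked members had median changes near 0. Within 200 kb of the X-linked members lay 23 other genes, of which 21 were tested. In clone 1 against wild-type, 9 were called higher and 7 lower (median log2 fold change 0.03), and 5 higher and 5 lower in clone 2 (median -0.07). Of all genes tested, 61.5% were called in clone 1 and 62.1% in clone 2. CETN2, a centrin of centrioles, and NSDHL, an enzyme of cholesterol synthesis, lie just beyond MAGEA6. CETN2 had a log2 fold change of -0.86 (SE 0.06) in clone 1 and NSDHL of -0.63 (SE 0.04), the opposite direction to the 4 cluster genes beside them. Other genes within 200 kb rose with the members in clone 1, such as MAGEA2B with 201 reads there and 3 in wild-type cells. PNMA5, near MAGEA1, had 1361 and 1. PRRG3, near FATE1, had 78 and 20 (log2 fold change 1.97, SE 0.38). These genes had few reads outside clone 1. Over the whole X chromosome, 498 other tested genes had a mean of at least 1 CPM over all 12 libraries. Their median log2 fold change was -0.02 in clone 1 and 0.04 in clone 2.

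In a wider stretch, from 2 Mb before to 2.2 Mb after MAGEA3, 58 other genes were tested. In clone 1, 4 of them were fitted at least 8-fold above wild-type, namely GABRA3, MAGEA2B, PNMA5 and BGN, and in clone 2 the count was 0 of 58. All 4 passed the read filter only through their clone 1 reads, so their direction was set by the filter. The share of all tested genes at 8-fold or more was not computed, and nothing is read from these counts. GABRA3, a GABA-A receptor subunit singled out after its values were seen, had 127, 185 and 173 reads in clone 1, none in clone 2 or the libraries labelled rescue, and 4, 2 and 4 in wild-type cells. PNMA5, a paraneoplastic antigen family gene, had 369, 545 and 447 reads in clone 1, against 0, 0 and 1 in wild-type cells. The median log2 fold change of the 58 genes was 0.16 in clone 1.

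**Figure D3:**
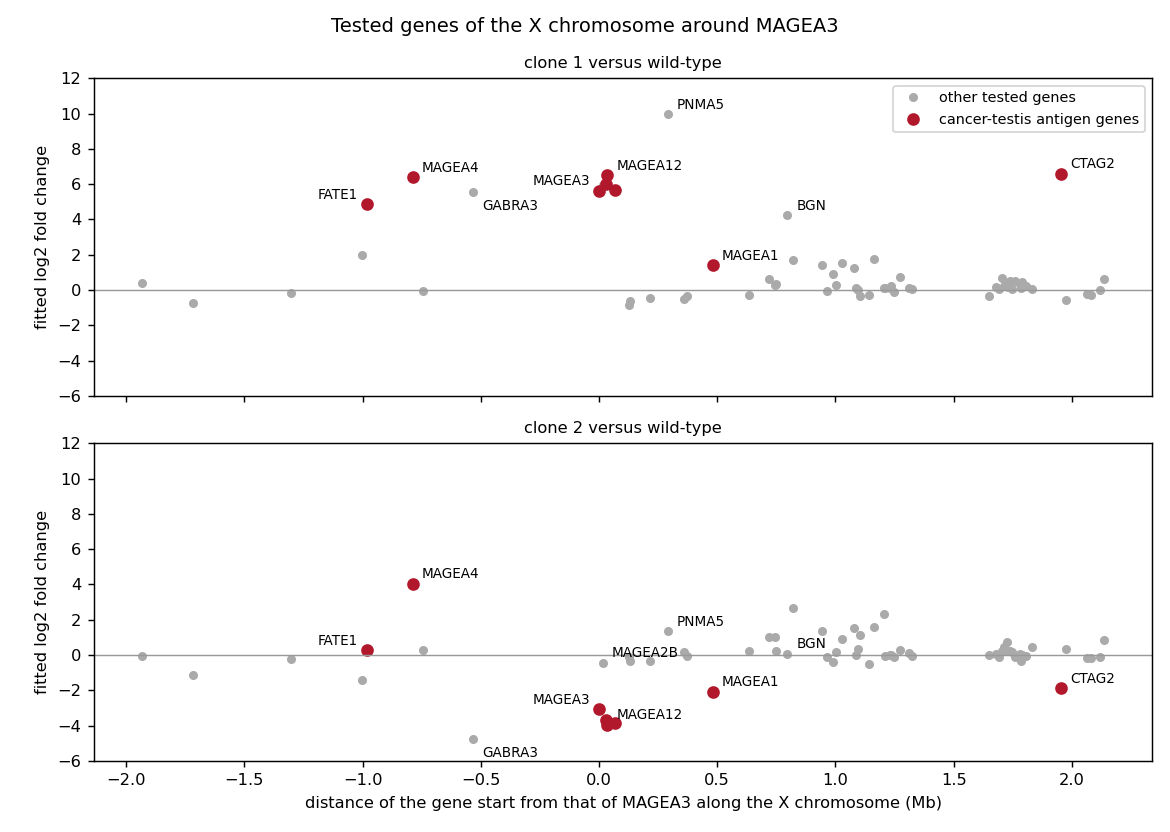
Fitted log2 fold change against wild-type of the tested genes around MAGEA3 on the X chromosome, by distance from the start of MAGEA3 in Mb, for clone 1 (top) and clone 2 (bottom); red points are the 8 X-linked cancer-testis antigen genes and grey points 58 other genes. In clone 1 all 8 red points lie at or above 1.40, most of them among grey points near 0; values of genes with a group near 0 reads, among them CTAG2 and GABRA3 in clone 2, depend on the fit and are no bounds.

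PIWIL2 lies on chromosome 8 from 22275297 to 22357563, on the plus strand. Around it, 13 other genes lay within 200 kb and 12 were tested. Of these, 6 were called higher and 1 lower in clone 1 (median log2 fold change 0.24), and 1 higher and 6 lower in clone 2 (median -0.32). The share of all genes called was 61.5% in clone 1 and 62.1% in clone 2. PHYHIP, whose protein binds a peroxisomal enzyme, had 178 reads in clone 1, none in clone 2, and 2 each in the libraries labelled rescue and in wild-type cells. It passed the read filter only through clone 1. On chromosome 8, 485 other tested genes had a mean of at least 1 CPM over all 12 libraries. Their median was -0.21 in clone 1 and -0.22 in clone 2, and PIWIL2 lay below both, at -3.21 in clone 1 and -4.48 in clone 2.

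Related genes outside the 9 members were taken from lists written with earlier results of these data in view. Of 22 other type I MAGE and CSAG genes listed, 2 were in the table. Both passed the read filter only through their clone 1 reads. By edgeR both were called higher in clone 1, where 61.5% of all genes were called, and neither in clone 2. With almost no reads outside clone 1 these calls were fixed by the filter, and nothing is read from them. MAGEB17 had 74 reads in clone 1 and none in wild-type cells, at least 25.2-fold higher. MAGEA2B, which lies inside the MAGEA3 cluster, had 67, 70 and 64 reads in clone 1, then 1, 1 and 0 in clone 2, none in the libraries labelled rescue, and 2, 0 and 1 in wild-type cells, a ratio of clone 1 to wild-type of 68.4 (counting interval 23.1 to 335). As for the cluster members around it, clone 1 was above every other group, and the few reads of MAGEA2B elsewhere give no order of the other groups. MAGEA2B shares stretches of its transcripts with MAGEA3, MAGEA6 and MAGEA12, so its reads are not certain to be its own.

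Of 8 other X-linked cancer-testis genes tested, 5 were called higher and none lower in clone 1, and 4 higher and 1 lower in clone 2. Over all genes, 61.5% were called in clone 1, 30.8% higher and 30.7% lower. In clone 2 the shares were 62.1%, 31.5% and 30.6%. PAGE1 (40 reads in clone 1, 7 in wild-type cells) and FAM133A (64 and 16) passed the read filter only through clone 1. Nothing is read from their calls. PLAC1, a placental gene, averaged 1.90 ± 0.236 CPM in clone 1 and 0.538 ± 0.112 in wild-type cells (SD, n = 3 each; log2 fold change 1.85, edgeR adjusted p = 3.85e-08). TFDP3, a DP-family partner of E2F factors, rose in both clones, to 8.24 ± 0.426 CPM in clone 1 and 6.60 ± 0.700 in clone 2, against 2.86 ± 0.142 in wild-type cells. SAGE1 was the most abundant gene of this list that passed, at 70.3 ± 0.828 CPM in clone 2 and 64.4 ± 1.13 in wild-type cells, with a log2 fold change of only 0.13. SAGE1 did not pass the test in clone 1, at 0.09 on the log2 scale.

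Autosomal cancer-testis and meiosis genes were split in direction. Of 41 tested, 9 were called higher and 14 lower in clone 1 (median log2 fold change -0.03), where 61.5% of all genes were called. In clone 2, 9 were called higher and 15 lower (median -0.06), where 62.1% were called. SYCP1, a protein of the synaptonemal complex that joins paired meiotic chromosomes, averaged 11.97 ± 0.677 CPM in clone 1, 2.09 ± 0.395 in clone 2, 0.416 ± 0.0303 in the libraries labelled rescue and 0.553 ± 0.268 in wild-type cells (SD, n = 3 each). Both clones thus exceeded wild-type for SYCP1, clone 1 by 4.35 (SE 0.17) and clone 2 by 1.83 (SE 0.25) on the log2 scale. DPPA4, a pluripotency and germline factor, had 112 reads in clone 1 and none in wild-type cells, at least 38.1-fold higher. DPPA4 and DPPA2 (37 reads in clone 1, none in wild-type cells) passed the read filter only through clone 1. TMEM108 (35 reads in clone 2, none in wild-type cells) passed it only through clone 2. Nothing is read from the calls of those genes.

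CTCFL, a testis paralog of the insulator protein CTCF that has been tied to activation of MAGEA genes, was lower wherever it was compared with wild-type. It averaged 64.3 ± 1.42 CPM in clone 1, 33.0 ± 1.37 in clone 2 and 144.3 ± 2.60 in wild-type cells (SD, n = 3 each), with log2 fold changes of -1.17 (SE 0.04) in clone 1 and -2.13 (SE 0.04) in clone 2. PRAME, a substrate receptor of cullin ubiquitin ligases and a widely expressed tumour antigen, fell in clone 2, to 29.3 ± 1.74 CPM against 76.5 ± 2.52 in wild-type cells, a log2 fold change of -1.38 (SE 0.05). Per kilobase of exon, wild-type cells held 16.2 CPM of CTCFL and 20.3 CPM of PRAME, both above each of the 9 members there.

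**Figure D4:**
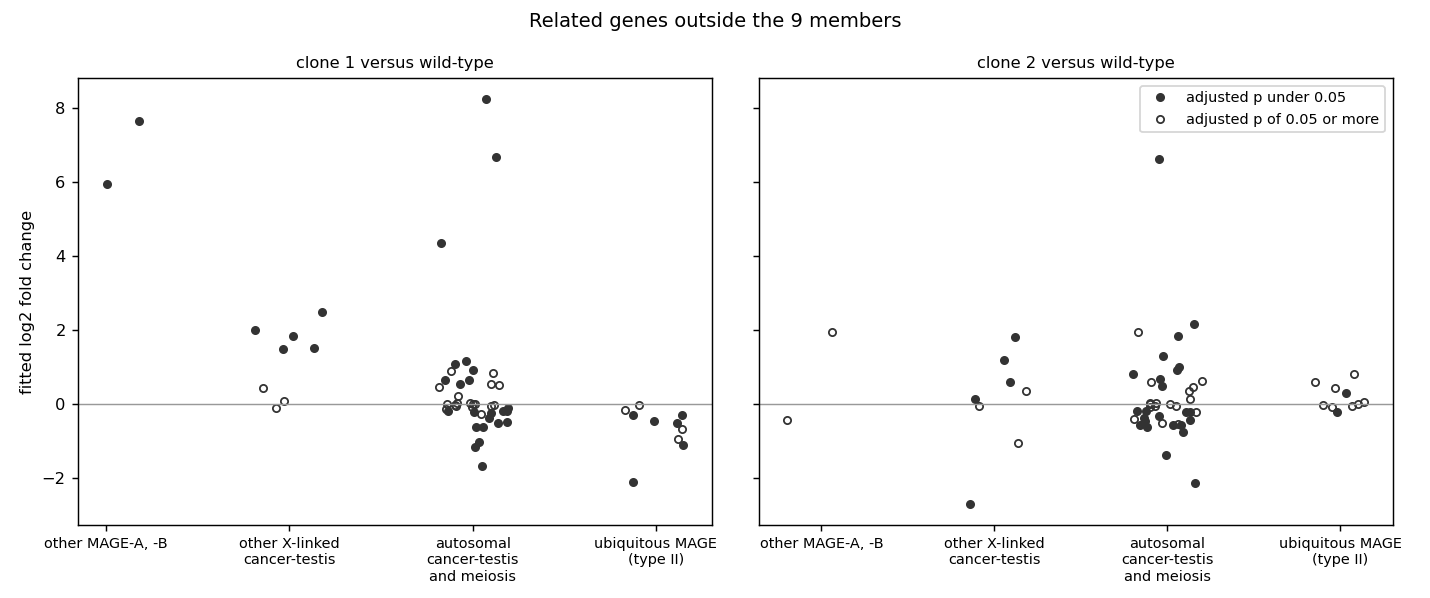
Fitted log2 fold change against wild-type of tested genes in 4 lists outside the 9 members, in clone 1 (left) and clone 2 (right); filled points passed edgeR's test at an adjusted p under 0.05 and open points did not. Other MAGE-A and MAGE-B genes, which passed the read filter only through clone 1, lie above 5 there. Autosomal genes lie on both sides of 0 in both clones. Sideways scatter carries no meaning, and points of genes without reads in a group depend on the fit.

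The ubiquitously expressed type II MAGE genes share the MAGE homology domain but are not cancer-testis genes. Of 10 tested, none was called higher and 6 lower in clone 1 (median log2 fold change -0.49), where 30.8% of all genes were higher and 30.7% lower. In clone 2, 1 was called higher and 1 lower (median 0.02), where 31.5% of all genes were higher and 30.6% lower. MAGED1 averaged 316.8 ± 16.3 CPM in clone 1 and 450.6 ± 25.1 in wild-type cells (SD, n = 3 each; log2 fold change -0.51, SE 0.04). MAGEH1 averaged 4.26 ± 0.147 CPM in clone 1 and 9.25 ± 0.404 in wild-type cells (log2 fold change -1.11, SE 0.10).

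Other genes of the piRNA pathway were split in direction. Of 15 tested, 8 were called higher and 3 lower in clone 1 (median log2 fold change 0.22), where 61.5% of all genes were called. GTSF1, 1 of those called higher, passed the read filter only through clone 1, with 39 reads there and none in wild-type cells. In clone 2, 7 were called higher and 6 lower (median 0.34), where 62.1% were called. PIWIL4, another PIWI protein, averaged 1.10 ± 0.107 CPM in clone 2 and 3.10 ± 0.230 in wild-type cells (SD, n = 3 each; log2 fold change -1.48, SE 0.19). TEX15, which takes part in piRNA-directed silencing in mouse germ cells, fell in clone 2 to 83.6 ± 1.99 CPM, against 123.0 ± 6.37 in wild-type cells. HENMT1, which methylates the ends of piRNAs, rose in clone 2 to 72.6 ± 4.02 CPM, against 49.0 ± 1.65 in wild-type cells.

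Of 13 tested genes of proteins reported to bind MAGE proteins or FATE1, 5 were called higher and 4 lower in clone 1. In clone 2, 2 were called higher and 4 lower. The share of all genes called was 61.5% in clone 1 and 62.1% in clone 2. TRIM28, the partner of MAGEA3 and MAGEA6, had a log2 fold change of -0.07 in clone 1 and -0.0033 in clone 2 and passed the test in neither. RNF183, a ubiquitin ligase that binds FATE1, had 75 reads in clone 1 and 4 in wild-type cells, a log2 fold change of 4.14 (SE 0.54). That fold change rests on 4 wild-type reads, and clone 2 had 11 reads of RNF183. RNF183 was named for the size of its change, and a link to the level of FATE1 was not tested.

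Genes of DNA methylation and heterochromatin belong to the machinery known to silence cancer-testis promoters in somatic cells. Of 39 tested, 6 were called higher and 25 lower in clone 1 (median log2 fold change -0.16), where 30.8% of all genes were higher and 30.7% lower. In clone 2, 8 were called higher and 19 lower (median -0.09), where 31.5% of all genes were higher and 30.6% lower. DNMT1, the maintenance methyltransferase, had a log2 fold change of -0.16 (SE 0.03) in clone 1 and 0.09 (SE 0.03) in clone 2. DNMT3B, a de novo methyltransferase, was higher in clone 1 (0.43, SE 0.08) and lower in clone 2 (-0.998, SE 0.09). EZH2, the polycomb methyltransferase, was lower in clone 1, at 57.3 ± 0.869 CPM against 108.9 ± 2.07 in wild-type cells (SD, n = 3 each), and did not pass the test in clone 2 (log2 fold change -0.03). Whether any of these changes has a part in the levels of the members was not tested.

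Among 13851 tested genes with a symbol and at least 1 CPM in a group, the profiles most like those of the members over the 12 libraries were found by the smallest root mean square difference of centred log2(CPM + 0.5). CAPN5, a calpain protease, was the nearest to MAGEA6 (0.562) and CSAG1 (0.240), and PNMA5 was nearest to MAGEA12 (0.600). RYR2, the cardiac ryanodine receptor, was nearest to MAGEA3 (0.744), averaging 38.0 ± 1.94 CPM in clone 1, 0.314 ± 0.142 in clone 2, 0.189 ± 0.0339 in the libraries labelled rescue and 3.32 ± 0.283 in wild-type cells (SD, n = 3 each). MAGEA3, MAGEA6 and MAGEA12 lay closer to each other, at 0.257 to 0.355, than to any of these genes, while CSAG1 lay closer to CAPN5 than to any other member. The members were chosen by their levels in these libraries, and MAGEA3 and MAGEA6 may share reads. Nothing is therefore read from the closeness of members to each other. CAPN5 averaged 3.18 CPM in clone 2 and 4.56 in wild-type cells, and CSAG1 averaged 0.0154 and 0.234. The added 0.5 CPM flattens such low levels, so the closeness of CSAG1 to CAPN5 is not likeness in fold.

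MAGEA1 was nearest to BMP5, a bone morphogenetic protein (0.227), MAGEA4 to FCHSD1 (0.126) and CTAG2 to PANX3, a pannexin channel (0.105). FATE1 was nearest to PCBP3, an RNA-binding protein (0.149), and then to the imprinted RNA H19 (0.154), which averaged 6.82 ± 0.641 CPM in clone 1, 0.228 ± 0.0369 in clone 2, 0.0257 ± 0.0222 in the libraries labelled rescue and 0.231 ± 0.160 in wild-type cells. PIWIL2 was nearest to LMX1A, a LIM homeobox factor (0.176), which averaged 0.534 ± 0.167 CPM in clone 1, 0.193 ± 0.128 in clone 2, 0.127 ± 0.0247 in the libraries labelled rescue and 3.93 ± 0.0317 in wild-type cells. Genes with few reads lie close together on this measure whatever their role, so the smaller distances of CSAG1, MAGEA4, CTAG2 and FATE1 are not closer likeness in fold.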

How the data were processed

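The authors deposited raw read counts per gene, with 1 column for each of 12 libraries from a stranded mRNA kit, per the labels' protocols. Per the submitters' processing notes, FastQC and STAR were used with hg38. Which program counted reads, with what strand setting and annotation, is not given in the sources used here. Library titles gave the groups.

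The quasi-likelihood test of edgeR 4.0.16 (R 4.3.3) was applied to the counts of all 12 libraries, scaled by TMM and filtered with filterByExpr at a minimum count of 10, in a model of 1 mean for each group with 8 residual degrees of freedom. Benjamini-Hochberg adjusted p ran over 17084 genes, and a gene was called under 0.05. SEs were the log2 fold change over the square root of F. The script was tested on simulated counts. Where a group had 0 reads, 3 counts over the group stood in as a floor, and groups with 1 to 3 reads are given as ratios with exact 95% intervals. Positions came from GENCODE release 29 and promoter sequence from RefSeq, GRCh38.p14.

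The members and lists were chosen with earlier results of these data known. Named genes were the members, ID2, up to 4 called genes per list and comparison with at least 1 CPM in a group and the largest fold changes, the 2 nearest profiles per member and genes within 200 kb. Outside this rule, TRIM28, DNMT1, GABRA3 and the uncalled or smaller differences of list genes were chosen after their values were seen. Alternatives were scaling by DESeq2 size factors or upper quartiles, leaving low counts in, a threshold of 1 CPM in 3 libraries, DESeq2 1.42.0, limma-voom (limma 3.58.1), fits of only the groups compared, a replicate block, leaving out each library, and summing MAGEA3 with MAGEA6.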

Additional observations from a re-analysis of the deposited data

Results flagged for a closer look

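For 5 members all 3 clone 1 libraries lay above wild-type and all 3 clone 2 libraries below it, although both lines are labelled ID2 knockouts; the difference was not tested beyond the comparison of clone 2 with clone 1, which with a shared wild-type is the same quantity and was known when the members were chosen. MAGEA3 averaged 84.8 CPM in clone 1 and 0.204 in clone 2, against 1.68 in wild-type cells. MAGEA6 averaged 45.5 CPM in clone 1 and 0.0579 in clone 2, against 0.891 in wild-type cells. MAGEA12 averaged 47.0 CPM in clone 1 and 0.0323 in clone 2, against 0.502 in wild-type cells. CSAG1 averaged 15.9 CPM in clone 1 and 0.0154 in clone 2, against 0.234 in wild-type cells. MAGEA1 averaged 5.53 CPM in clone 1 and 0.492 in clone 2, against 2.08 in wild-type cells. ID2 RNA was 18.1 CPM in clone 1 and 50.9 in clone 2, and its part in these levels was not tested. Each line is 1 clone, so the edit and the clone cannot be told apart.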

How the results depend on the processing

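Of 826 log2 fold changes of members recomputed over 21 alternatives, 818 kept their direction and their side of the threshold. The exceptions lay where reads are few. For the libraries labelled rescue against clone 2, MAGEA3 was 0.29 with the near-identical copies summed, and PIWIL2 was -0.078 by limma-voom, -0.24 without rescue replicate 2 and -0.042 without rescue replicate 3 (-0.24 to 0.43 over all libraries left out), none of which passed the test, and MAGEA6 was called without clone 2 replicate 3 (2.62, edgeR adjusted p = 0.0351). PIWIL2 in clone 2 against clone 1 lost its call without clone 1 replicate 2 (-1.18, adjusted p = 0.0673), clone 1 replicate 3 (-1.15, 0.0717) or clone 2 replicate 3 (-1.20, 0.0557). With only the groups compared in the fit, 4 members were called in clone 2 against wild-type, 0 in the libraries labelled rescue against clone 2 and 4 in those libraries against wild-type, where the read filter left 4, 1 and 4 members to test. For clone 2 against clone 1 the filter left 8. Nothing is read from these counts. Leaving out 1 library in turn, the members called were 9 in clone 1 and 7 in clone 2 against wild-type, 2 to 3 for the libraries labelled rescue against clone 2, 7 for those libraries against wild-type and 8 to 9 between the clones. All genes called in these fits numbered 9870 to 10722 in clone 1 and 9879 to 10817 in clone 2 against wild-type. They numbered 5915 to 6997 for the libraries labelled rescue against clone 2, 9220 to 10157 for those libraries against wild-type and 9990 to 10844 between the clones.

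The replicate numbers of the titles were not taken as pairs: same-numbered libraries had correlations of their deviations between -0.0824 and 0.116 over all pairs of groups, and in no pair of groups were all 3 over 0.1. Between the clones all 6 libraries correlated best with their own number. With a replicate block, 9 members were called in clone 1 and 7 in clone 2 against wild-type, 2 for the libraries labelled rescue against clone 2, 7 against wild-type and 9 between the clones, and 10577 genes in all were called in clone 1 against wild-type, against 10513 without it. With that block 10668 genes were called in clone 2 against wild-type and 10689 between the clones. For the libraries labelled rescue, 6783 genes were called against clone 2 and 10004 against wild-type. Groups with under 25 reads set the limit of what could be seen for most members in clone 2 and the libraries labelled rescue.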
